A study of Mus musculus with 12 samples.

Results

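The gel response of a gene is the difference between its level in cells kept in collagen gel and its level in cells kept in media. The comparison described here takes that response in Dock8 KO cells minus that response in WT cells, the interaction of genotype and culture, as a log2 difference. A positive value means that the level moved higher, or fell less, in the gel in KO than in WT cells. All 12 of 12 libraries of the series entered it, and 636 of 19010 genes tested passed an adjusted p of 0.05, 3.35% of the genes (360 with a positive value, 1.89%, and 276 with a negative value, 1.45%).

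The cells were activated primary CD8+ T cells, the cytotoxic lymphocytes, from lymph node and spleen of mice, expanded for 3 days and then kept for 24 h in 1 of 2 cultures. The 4 groups of 3 libraries were WT in media, Dock8 KO in media, WT in a bovine collagen gel at 2 mg/mL, and Dock8 KO in the same gel. The labels give neither the Dock8 allele nor the strain, nor whether a media and a gel library of 1 genotype came from the same mouse. Cells had to be recovered from the gel, so the matrix and the recovery from it cannot be told apart. The p-values measure the spread between these libraries. In bulk RNA, fewer cells of a type and less RNA per cell cannot be told apart.

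DOCK8 is a guanine nucleotide exchange factor that loads the small GTPase CDC42, an organiser of actin filaments at the front and centre of migrating leukocytes. Loss of DOCK8 in humans and mice causes a combined immunodeficiency, and T cells without it lose their shape and can fragment when they squeeze through dense matrix such as skin or collagen. The series title places the study on this ground, and the interaction asks which transcripts answered the matrix differently when Dock8 was missing.

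Dock8 itself (ENSMUSG00000052085, chr19:24999534-25202432 on GRCm38) checks the labels. WT media libraries held 362, 418 and 443 CPM (the count relative to the scaled total of its library) and KO media libraries 126, 109 and 125 CPM. WT gel libraries held 378, 410 and 450 CPM and KO gel libraries 168, 161 and 158 CPM. The genotypes did not overlap in either culture, and transcript was still counted in every KO library. Its interaction was 0.42 (log2, SE 0.13), which missed the threshold (adjusted p = 0.0854, edgeR quasi-likelihood with Benjamini-Hochberg adjustment). Within KO cells the level was higher in gel than in media by 0.44 (adjusted p = 0.00425).

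The 3 KO gel libraries stood apart from the other 9 in measures that are not single genes. At a common depth of 28483064 counts they held 28362 to 30104 symbols with a count, against 24336 to 25142. Gene models of satellite-like repeats took 909.3 to 4807 CPM in them, against 68.85 to 211.8, and the mitochondrial genome gave 2.27 to 2.6% of their counts and 1.33 to 2.31% of those of the other 9, ranges that overlap slightly. WT gel library 2 had 16.4% of its counts at loci that resemble ribosomal RNA, KO media library 3 had 10.9% and the other 10 had 3.6 to 8.36%, so counts of calls are also given without that pair of libraries. Cd8a, a subunit of the CD8 receptor, averaged 670, 590, 665 and 595 CPM in WT media, KO media, WT gel and KO gel. Some defining markers of other cells were low in every group: Ms4a1 of B cells reached at most 0.083 CPM and S100a8 of neutrophils 0.032. Lyz2 of macrophages was low too but reached 0.491 CPM in KO gel against at most 0.175 elsewhere. Pf4 of platelets reached 6.872 in KO gel against at most 2.045 elsewhere, Cd4 of helper T cells 6.989 against at most 3.803 and Cpa3 of mast cells 3.828 against at most 2.643. Ighm, the immunoglobulin heavy chain of B cells, was not low, at up to 1045 CPM in WT gel and up to 794 in KO gel, and carried most of a B cell marker sum of 755 to 1080 CPM. The summed markers of neutrophils and mast cells were 14.5 to 22.4 CPM in KO gel and 5.1 to 11.4 elsewhere, and those of erythroid cells and platelets 13.8 to 29.9 and 4.81 to 9.42. The part of these measures in the results that follow was not tested.

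**Figure D1:**
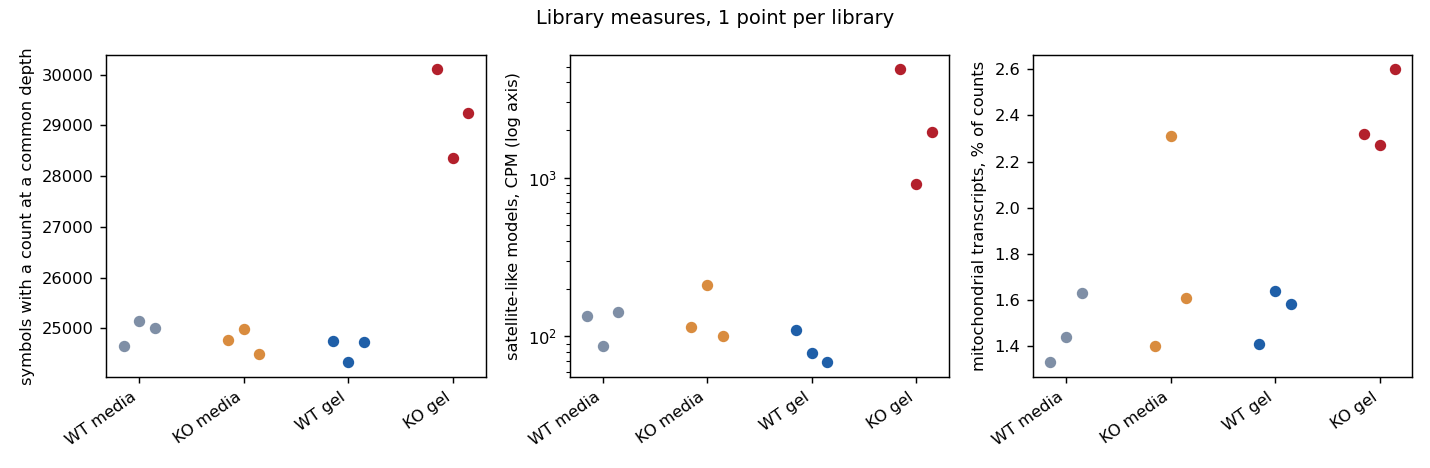
Library measures by group, 1 point per library: symbols with a count at a common depth of 28483064 counts, satellite-like gene models in CPM on a log axis, and mitochondrial transcripts as a percent of counts. The 3 KO gel points lie above the other 9 in the first 2 panels (28362 to 30104 symbols against 24336 to 25142).

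Called genes split by level and size. The 360 with a positive interaction had a median of 1.68, a 3.2-fold difference between the responses, and 260 of them differed at least 2-fold. The 276 with a negative interaction had a median of -0.49, a 1.4-fold difference, and 3 of them differed at least 2-fold. Most of the negative calls were of well expressed genes: 265 had a mean log2 CPM over 3, 2.67% of the genes at that level, where 100 positive calls (1.01%) lay with a median of 0.67; with those genes fitted alone the excess was gone, at 121 positive and 123 negative calls. The other 260 positive calls (2.86% of the genes under that level, where 0.121% were negative) had a median level of 0.532 CPM over the 9 other libraries and 1.87 CPM in KO gel. The filter on low counts bears on this side: 69 of the 360 positive and 0 of the 276 negative calls passed it only with the KO gel libraries, so that they had to be high there. The median over all genes tested was 0.

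The number of calls rested on single libraries and on the scaling, while no value of the 636 changed sign in any of the 23 other settings that tested it (365 of them were tested among genes of mean log2 CPM over 3 alone, 626 with satellite-like, ribosomal RNA-like and mitochondrial loci left out, and 636 in the others). It was 185 without WT media library 2, 2011 without WT media library 1 and 30 without WT gel library 2 and KO media library 3, and scaling by total counts, which moved the median of all genes by 0.12, gave 458 positive and 24 negative calls. All 12 fits that left out 1 library called 160 of the 636 genes, 99 positive and 61 negative. Genes just inside the threshold were Ltb4r2 (2.26), Tpgs2 (-0.39) and Mnt (-0.53), and just outside it lay Avil (1.88), Tubb4b-ps1 (-0.33) and Gm11168 (4.63).

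The KO gel group drove most of the called genes. A group was named the driver when its mean lay farthest from the mean of the other 3, and this was KO gel for 573 of the 636, 90.1%, against 52.5% of all genes tested. KO media was farthest for 42 (22% of all genes), WT gel for 21 (14.9%) and WT media for 0 (10.6%). All 3 KO gel libraries lay above the other 9 for 295 called genes and below them for 266, against 10% and 11.3% of all genes. The KO response was itself called for 619 of the 636 (346 up and 273 down), and for 11.1% of all genes up and 9.74% down.

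The WT response was called for 0 of the 636 by edgeR's quasi-likelihood test, and for 0.0316% of all genes up and 0.00526% down. At an unadjusted p under 0.05 it passed for 104 of them by edgeR, DESeq2 called 9, and limma-voom called 0. The KO response was the larger of the pair for 616 genes, 96.9%, against 74.7% of all genes, and the responses had opposite signs for 442, 69.5%, against 42.3%. The genotypes were farther apart in gel than in media for 587, 92.3%, against 67.1% of all genes, and closer in gel for 49. Between the genotypes, 591 of the 636 were called in gel and 5 in media, where of all genes 7.12% were higher and 7.71% lower in KO gel, and 0.0263% higher and 0.163% lower in KO media. These shares follow in part from how an interaction is called, since a gene passes only when the 2 responses differ.

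**Figure D2:**
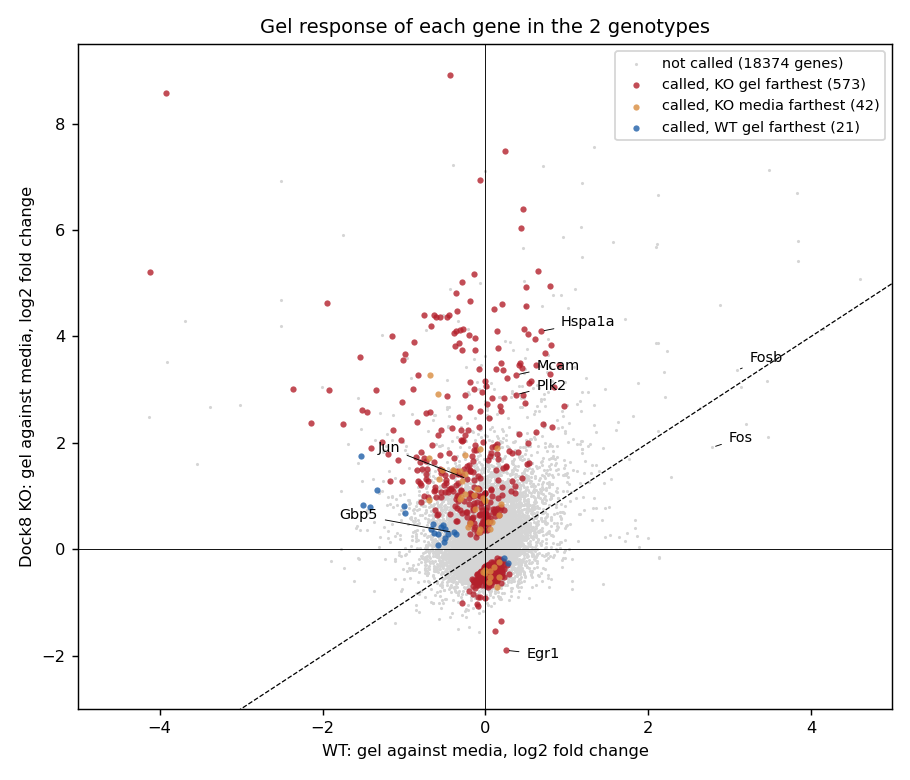
Gel response in WT cells (horizontal axis, log2) against the gel response in Dock8 KO cells (vertical axis, log2) for 19010 genes, called genes coloured by the group farthest from the rest and the dashed line marking equal responses. The 573 genes driven by KO gel spread up and down at WT values near 0, while the 21 driven by WT gel lie to the left of the vertical line for 19 genes.

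The clearest block of negative values was DNA replication. Of 38 S phase genes, which encode the helicase, polymerases, nucleotide enzymes and licensing factors of DNA copying, 31 were called, all lower in the KO response, against 1.45% of all genes. Their median interaction was -0.50 (median KO response -0.51, median WT response 0.01). For 37 of 38 all 3 KO gel libraries lay below the other 9, against 11.3% of all genes. The E2F transcription factors are the known drivers of this group. The 8 letters TTTCGCGC, searched on both strands, stood in the 250 bases before the start of 3 of the 28 called genes with a RefSeq promoter, against 0.256% of 32851 promoters. A gene counted when any of its promoters held the letters, while the percent is of single promoters, so the units are unlike. The heat shock factor letters GAANNTTC also stood in 3 of the 28, against 6.69% of promoters. The 3 E2F sites are shown because the genes that carry them fell together, with the match in capitals and 20 bases either side, 5′ to 3′ on the strand of the gene (RefSeq, GRCm38.p6). They lie at chr8:75109336-75109383 (+), chr1:128359784-128359831 (-) and chr17:56304108-56304155 (+), and end 146, 99 and 178 bases before the start.
Mcm5: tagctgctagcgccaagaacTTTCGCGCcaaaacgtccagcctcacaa
Mcm6: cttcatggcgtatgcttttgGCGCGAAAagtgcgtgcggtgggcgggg
Uhrf1: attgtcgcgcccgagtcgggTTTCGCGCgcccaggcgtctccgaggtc

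Mcm6, a subunit of the replicative helicase, stood at 337, 320 and 286 CPM in WT media, 336, 382 and 356 in KO media, 364, 356 and 303 in WT gel, and 210, 258 and 240 in KO gel. The KO gel libraries lay below all others and the other 3 groups overlapped. The interaction was -0.72 (SE 0.14, adjusted p = 0.014, edgeR quasi-likelihood with Benjamini-Hochberg adjustment). Mcm5, of the same helicase, had -0.50 and Uhrf1, which guides DNA methylation to new strands, -0.56; both were named after their values were seen, as carriers of the site. Pcna, the sliding clamp, also named after its values were seen, stood at 286 to 332 CPM in the other 9 libraries and at 197, 226 and 218 in KO gel.

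Factors that license replication origins were also lowest in KO gel. Cdt1, which loads the helicase, was at 63.9, 65.9 and 69.5 CPM in WT media, 64.6, 71.9 and 67.4 in KO media, 73.2, 76.3 and 70.8 in WT gel, and 39.7, 50 and 45.4 in KO gel. WT gel lay above WT media and KO gel below everything else, and the interaction was -0.74 (SE 0.11, adjusted p = 0.00612, edgeR quasi-likelihood with Benjamini-Hochberg adjustment). Cdc6, its partner in loading, stood at 84.9, 88.2 and 86.9, then 83.4, 83.2 and 91.9, then 93.5, 91.2 and 89.5, and at 53.4, 62.4 and 58.2 CPM in KO gel, in the same order of groups. Its interaction was -0.65 (SE 0.09). Rrm1, the large subunit of ribonucleotide reductase, which makes the DNA building blocks, stood at 395 to 421 CPM in 9 libraries and at 264, 292 and 294 in KO gel, with -0.58 (SE 0.09). Tk1, thymidine kinase, had -0.65 (SE 0.10).

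The 7 S phase genes that were not called, Ccne2, Clspn, Gins1, Gins2, Mcm2, Rfc3 and Ung, had negative values too, and all 38 passed an unadjusted p of 0.05. The median of the list moved less across settings than its calls did: 0 members were called by edgeR without WT gel library 2 and KO media library 3 (median -0.50) and 4 with scaling by total counts (median -0.38), while DESeq2 called 35 and limma-voom 31. Leaving out 1 library gave 15 to 36 called members, the fewest without WT media library 2. By library, the median member lay at -0.635, -0.41 and -0.442 in KO gel libraries 1, 2 and 3 relative to the mean of WT media (log2), and satellite-like models took 4807, 909.3 and 1926 CPM in the same libraries, so the library lowest for S phase was also the highest for these repeats; their part in the result was not tested.

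Of 36 division genes of G2 and M phase, 5 were called lower (13.9%, against 1.45% of all genes, median of the list -0.26), namely Aurkb, Birc5, Cdk1, Espl1 and Ube2c, and 0 higher by edgeR at the adjusted or the unadjusted threshold and 0 by DESeq2 and limma-voom. The lower calls were 0 without WT media library 2 and 9 without WT media library 1. Aurkb, a mitotic kinase, stood at 138 to 159 CPM in 9 libraries and at 96.5, 99.8 and 107 in KO gel, with -0.45 (adjusted p = 0.0157, edgeR quasi-likelihood with Benjamini-Hochberg adjustment). Of 32 genes of DNA damage signalling and repair, 5 were called lower (among them Bard1, Fancd2, Nbn and Topbp1) and 1 higher (Gadd45b, a stress sensor induced by damage, 0.64). These calls are 18.8% of the list, against 3.35% of all genes, and the list median was -0.23. Fancd2, of the crosslink repair pathway, had -0.48, and Topbp1, which activates the replication checkpoint kinase ATR, -0.39. Outside this list, Rad54l, a motor of homologous recombination, stood at 85.4 to 103 CPM in 9 libraries and at 59.2, 69.2 and 68.2 in KO gel, with -0.65 (SE 0.09). Without WT gel library 2 and KO media library 3, edgeR called 0 members of either list.

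Calls among p53 targets had the other sign. The transcription factor p53 is stabilised by DNA damage and other stress and induces genes of cell cycle arrest, repair and death, and of 36 such targets 10 were called, all higher in the KO response, against 1.89% of all genes (median of the list 0.24, median KO response 0.37, median WT response 0.08). For 21 of the 36 all 3 KO gel libraries lay above the other 9, against 10% of all genes. The count was 2 without WT gel library 2 and KO media library 3, Plk2 and Ercc5, and 5 without WT media library 2. The median target lay 0.403, 0.304 and 0.427 above the mean of WT media in KO gel libraries 1, 2 and 3, which are also the libraries that stood apart above.

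Plk2 (ENSMUSG00000021701, chr13:110395046-110400844), a polo-like kinase, was the p53 target of the smallest p. It stood at 5.96, 7.27 and 6.08 CPM in WT media, 4.78, 4.18 and 4.85 in KO media, 8.03, 9.87 and 7.25 in WT gel, and 30.3, 34.5 and 38.6 in KO gel. KO media was the lowest group and KO gel the highest, 7.48-fold above KO media, and the interaction was 2.53 (SE 0.18, adjusted p = 1.19e-05, edgeR quasi-likelihood with Benjamini-Hochberg adjustment). The WT gel and WT media libraries overlapped at one edge, and their difference of 0.37 was not called.

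Other targets showed smaller steps in the same group. Mdm2, the ligase that degrades p53, was at 84.7, 88.8 and 89.4 CPM in WT media, 89.1, 83 and 85.9 in KO media, 87.7, 95.2 and 91.5 in WT gel, and 131, 124 and 134 in KO gel, with 0.53 (SE 0.08, adjusted p = 0.0077 by the same edgeR test). Ercc5, an endonuclease of nucleotide excision repair, stood at 31.1 to 35.8 CPM in 9 libraries and at 53.7, 50.6 and 51.6 in KO gel, and was 1 of 5 genes called in all 23 other settings, beside Plk2, Rgs1, Fads1 and the model Gm7729. Eda2r, a receptor of the TNF family, stood at 0.149 to 0.471 CPM in 9 libraries and at 2.16, 2.65 and 3.09 in KO gel, with 2.58. Tnfrsf10b, a death receptor, had 0.80, and Pmaip1, which encodes the killer protein NOXA, 0.57. Phlda3 (0.83), Perp (0.97), Polk (0.48) and Cd80 (0.56), the remaining 4 called targets, were named after their values were seen.

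Early response genes split. Of a list of 13 genes of AP-1 transcription factors, 1 was called higher, Jun, and 0 lower (7.69%, against 3.35% of all genes). Jun, a subunit of the AP-1 transcription factor, stood at 26.5, 27.7 and 42.9 CPM in WT media, 24.4, 18 and 22.1 in KO media, 25, 28.3 and 29.9 in WT gel, and 55, 51.3 and 55.3 in KO gel. KO gel lay above all others, KO media lay below all others, and WT media and WT gel overlapped between them. The interaction was 1.55 (SE 0.23, adjusted p = 0.00612, edgeR quasi-likelihood with Benjamini-Hochberg adjustment). Fos, its usual partner, is shown because it did not pass: 0.683 to 1.7 CPM in the 6 media libraries, 6.51, 8.04 and 5.69 in WT gel and 5.59, 5.92 and 5.91 in KO gel, with -0.87 (adjusted p = 0.101 by the same test).

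Egr1 and Egr2, zinc finger factors switched on within minutes of T cell receptor or growth factor signals, had the opposite sign. Egr1 stood at 48.6, 44.5 and 32.6 CPM in WT media, 79.8, 72.8 and 73.3 in KO media, 60.7, 58.2 and 31.2 in WT gel, and 21, 22.1 and 17.5 in KO gel. KO media was the highest group and KO gel the lowest with WT between them, so that the KO libraries moved from above WT to below it, and the interaction was -2.15 (SE 0.32, adjusted p = 0.0088, edgeR quasi-likelihood with Benjamini-Hochberg adjustment). The difference between the genotypes in media, 0.85, was not called, and in gel it was -1.30 and called. Egr2 gave 7.16, 5.69 and 4.12, then 11.9, 8.68 and 8.67, then 8.09, 6.29 and 4.11, and 3.4, 3.57 and 3.07 CPM in KO gel, with -1.66 (SE 0.33).

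Of the 32 genes on a separate list of early response genes, which did not hold Jun, 12.5% were called, against 3.35% of all genes. Of these, 3 were lower (Egr1, Egr2 and Dusp6, the phosphatase that limits ERK, -0.59) and 1 higher. The list median of -0.04 became 0.08 when counts were scaled by their totals. The higher one was Rgs1, a brake on chemokine receptor G proteins: 9.91, 9.66 and 9.54 CPM in WT media, 10, 10.5 and 10.9 in KO media, 9.91, 11.6 and 9.27 in WT gel, and 20.7, 21.4 and 20.7 in KO gel. The KO gel value was 2-fold that of KO media with a narrow spread, and the interaction was 0.93 (SE 0.12, adjusted p = 0.00316 by the same edgeR test).

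**Figure D3:**
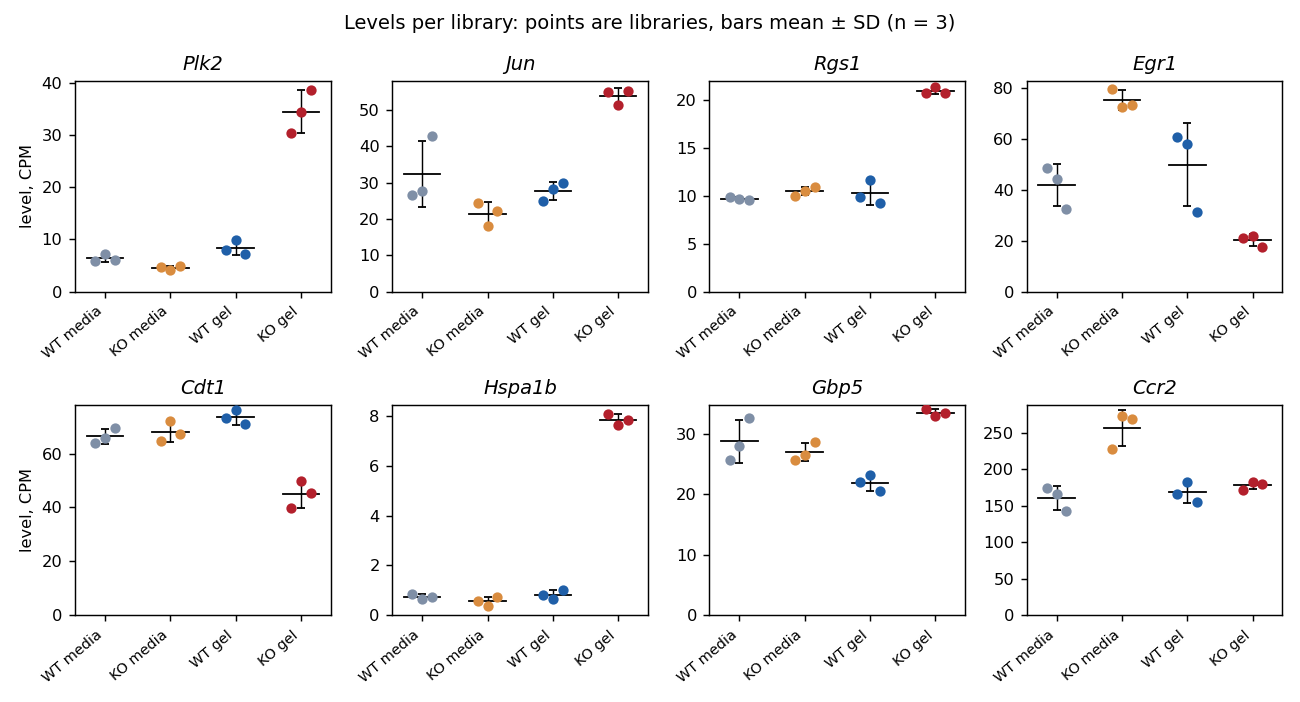
Level in CPM of 8 genes in each library (points) with the mean and SD of 3 libraries per group. Plk2, Jun, Rgs1 and Hspa1b are highest and Cdt1 and Egr1 lowest in KO gel, Gbp5 is lowest in WT gel, and Ccr2 is highest in KO media.

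Chaperones also split. HSP70 and its partners hold unfolded proteins, and the inducible copies Hspa1a and Hspa1b answer heat, proteotoxic stress and cell handling through heat shock factor 1. Hspa1b stood at 0.862, 0.65 and 0.747 CPM in WT media, 0.582, 0.391 and 0.718 in KO media, 0.831, 0.637 and 1.01 in WT gel, and 8.07, 7.64 and 7.86 in KO gel, with an interaction of 3.64 (SE 0.30, adjusted p = 3.74e-05, edgeR quasi-likelihood with Benjamini-Hochberg adjustment). The gap between the KO gel libraries and the others was wider than the whole range of those 9. Hspa1a gave 5.78, 6.92 and 7.48 CPM in KO gel against 0.367 to 0.803 elsewhere, with 3.42 (SE 0.28). The copies are nearly identical, so the split of reads between them is uncertain, and their promoters shared the printed window. It is shown because it holds the heat shock factor letters GAANNTTC (both strands, in 6.69% of 32851 promoters), in capitals, which end 97 bases before each start (RefSeq, GRCm38.p6, chr17:34972233-34972280 and chr17:34959315-34959362, both on the minus strand).
Hspa1a: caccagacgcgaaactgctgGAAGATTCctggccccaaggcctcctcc
Hspa1b: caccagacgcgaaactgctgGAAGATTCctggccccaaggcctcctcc

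Both lower calls were of constitutive chaperones. Hsp90ab1, the abundant HSP90 of resting and growing cells, stood at 1690, 1531 and 1471 CPM in WT media, 1678, 1803 and 1741 in KO media, 1759, 1793 and 1569 in WT gel, and 1027, 1242 and 1246 in KO gel, below the other 9, with -0.70 (adjusted p = 0.0135, edgeR quasi-likelihood with Benjamini-Hochberg adjustment). Hspa8, the constitutive HSP70, named after its values were seen, had -0.53. Of 27 chaperone genes tested, 3 were called higher (Dnajb4, a cochaperone of HSP70, at 0.56, beside the inducible pair) and 2 lower. These calls are 18.5% of the list, against 3.35% of all genes. The median of -0.10 turned to 0.03 with scaling by total counts. In the endoplasmic reticulum, Ern1, which encodes the stress sensor IRE1, had 0.61 and Prdx4, a peroxidase of that compartment, -0.90. They made 1 call each way among 28 genes (7.14%, against 3.35% of all genes).

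Interferon-stimulated genes encode antiviral effectors and guanylate-binding proteins, and answer type I and type II interferon. Of 39 tested, 8 were called, all higher in the KO than the WT response, against 1.89% of all genes, and 37 had a positive value. The median interaction was 0.44, with a median KO response of 0.13 and a median WT response of -0.20. KO gel was the farthest group for 18 of the 39 (52.5% of all genes) and WT gel for 12 (14.9% of all genes). WT gel was farthest for 5 of the 8 called. The count was 15 with DESeq2 and 7 with limma-voom, 1 (Ifit1) without WT gel library 2 and KO media library 3, and between 1 (without KO media library 1) and 16 (without WT media library 1) when 1 library was left out.

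The promoters of 3 of 4 called members matched to RefSeq held the interferon response element, searched as 2 copies of GAAA with 2 bases of any kind between them on either strand, in the 250 bases before the start, against 2.98% of 32851 promoters. Here too genes are set against single promoters. This motif was added after the values were seen. The elements are shown as the known contact points of the STAT and IRF factors, with matches in capitals (RefSeq, GRCm38.p6, chr19:34640765-34640833 +, chr3:142620584-142620633 + and chr11:48871421-48871470 -). Ifit1 holds 2 sites, Gbp2 holds 1 and Irgm1 holds 2 that overlap, and the last base of the last site lies 76, 50 and 15 bases before the start.
Ifit1: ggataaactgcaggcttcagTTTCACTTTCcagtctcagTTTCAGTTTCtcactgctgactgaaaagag
Gbp2: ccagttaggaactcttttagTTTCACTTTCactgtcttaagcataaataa
Irgm1: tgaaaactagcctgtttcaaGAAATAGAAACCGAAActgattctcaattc

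Gbp2, a guanylate-binding protein that attacks the vacuoles of pathogens, stood at 139, 144 and 204 CPM in WT media, 135, 124 and 152 in KO media, 110, 121 and 114 in WT gel, and 180, 163 and 191 in KO gel. WT gel was the lowest group and KO gel overlapped with WT media library 3 alone. The interaction was 0.87 (SE 0.18, adjusted p = 0.0201, edgeR quasi-likelihood with Benjamini-Hochberg adjustment), made up of a KO response of 0.38, which was called, and a WT response of -0.50, which was not. Gbp5, which promotes inflammasome assembly, had 25.7, 27.9 and 32.7, then 25.7, 26.5 and 28.6, then 22.1, 23.3 and 20.6 CPM in WT gel and 34.2, 33 and 33.5 in KO gel. WT gel lay below and KO gel above all others, with an interaction of 0.71 (SE 0.12).

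Ifit1, which binds viral RNA, had the largest KO response of the 8 called members: 2.34, 2.09 and 1.84 CPM in WT media, 1.94, 2.27 and 1.85 in KO media, 1.52, 1.43 and 1.13 in WT gel, and 4.54, 3.97 and 4.66 in KO gel. WT gel again lay below every other library and KO gel above, with 1.75 (SE 0.23, adjusted p = 0.00316, edgeR quasi-likelihood with Benjamini-Hochberg adjustment). Rtp4, a chaperone of receptor transport, gave 5.04, 7.12 and 6.22 CPM in WT gel and 10.2, 9.16 and 11.4 in KO gel, with 1.12 (SE 0.24). Mx1, an antiviral GTPase, had 0.77, with a WT response of 0.02.

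Further members of these families lay outside the list or were named after their values were seen. Gbp7 was 59.8, 62.5 and 55.8 CPM in WT gel and 88.6, 90.9 and 91.6 in KO gel, with 73 to 95.9 in media (0.66). Gbp4 (0.98) and Gbp10 (1.06) had WT gel as the farthest group. Named after their values were seen, the immunity GTPases Irgm1, Tgtp1 and Tgtp2 had 0.70, 0.94 and 0.86 (the last 2 are near-identical copies and their split is uncertain), Zbp1, a nucleic acid sensor, 0.64, and Oasl2 1.74. For Irgm1 the KO response was 0.20 and the WT response -0.50, neither called. Ifit1bl1, a relative of Ifit1, gave 0.88 (SE 0.14).

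Most called genes driven by WT gel had it as the low group. Of the 21 called genes in which WT gel was farthest, 19 had a positive interaction. For these a negative WT response, seen in 19 of the 21, follows from how they were picked. A positive KO response was seen in 19 of the 21, and 5 of the 21 belonged to the interferon list. Outside that family lay Arrdc3, an arrestin that controls receptor and glucose transporter traffic, at 18.2, 22.3 and 22.1 CPM in WT media, 17, 20.8 and 23.7 in KO media, 11.3, 16.1 and 15.5 in WT gel, and 30.5, 26.7 and 25.1 in KO gel (0.97). Cxcr4, the receptor of the chemokine CXCL12, showed the mirror image: 69.8, 72.6 and 78 CPM in WT gel above 60.4 to 67.6 in media and above 53.9, 56.1 and 58.8 in KO gel, with -0.41 (adjusted p = 0.031, edgeR quasi-likelihood with Benjamini-Hochberg adjustment).

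Of 24 genes of NF-kB and nucleic acid sensing, 4 were called higher (16.7%, against 1.89% of all genes: Tnfaip3, Nfkbia, Icam1 and Nfkb2) and 0 lower by edgeR, where 3 passed an unadjusted p of 0.05 in that direction and DESeq2 and limma-voom called 0. The median was 0.22, with 17 positive and 7 negative values, and without WT gel library 2 and KO media library 3 edgeR called 0 members. Tnfaip3, the deubiquitinase A20 that shuts the pathway off, stood at 79.1, 70.7 and 81.5 CPM in WT media, 68, 59 and 60.7 in KO media, 102, 93.8 and 102 in WT gel, and 138, 120 and 133 in KO gel. Gel lay above media in both genotypes and the step was larger in KO cells (0.69, adjusted p = 0.00818, edgeR quasi-likelihood with Benjamini-Hochberg adjustment). Outside this list, Cd274, which encodes PD-L1, stood at 15.5, 16.7 and 22.1, then 16.7, 16.4 and 16, then 14.2, 14.9 and 13.3 in WT gel and 23.3, 22.8 and 24.5 CPM in KO gel, with 0.88 (SE 0.15), WT gel the lowest group and KO gel the highest.

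**Figure D4:**
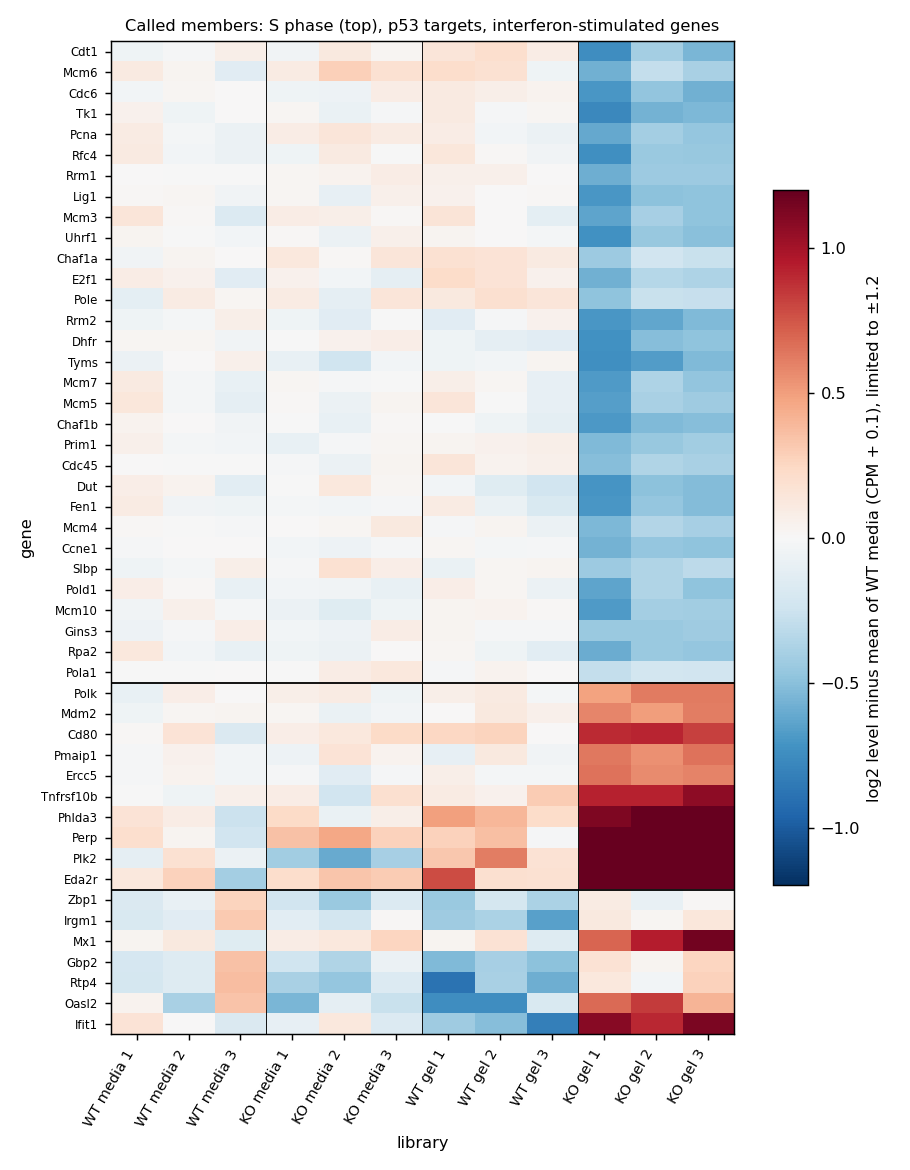
Called members of the S phase list (top), the p53 targets (middle) and 7 of the 8 called interferon-stimulated genes (bottom; 1 is not reported here) in each of 12 libraries, coloured by log2 level minus the mean of WT media with 0.1 CPM added, limited to 1.2 either way. KO gel columns are low for the 31 S phase genes and high for the 10 p53 targets, and the 7 interferon-stimulated genes shown are high in KO gel or low in WT gel.

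In 42 called genes the KO media group was the one set apart, so that the genotypes differed more in media than in gel; 32 had a positive and 10 a negative interaction. The difference between the genotypes in media was called for 5 of them: Ccr2, Ikzf2, Dnah17, Hmgn5 and Gm28112. Without WT gel library 2 and KO media library 3, these 5 genes were not called for the interaction. Of the 12 fits that left out 1 library, 5 called Ccr2, 4 Ikzf2, 11 Hmgn5, and 12 both Dnah17 and Gm28112. Ccr2, the receptor that draws effector cells to inflamed tissue, stood at 174, 166 and 143 CPM in WT media, 228, 274 and 269 in KO media, 166, 183 and 155 in WT gel, and 172, 183 and 180 in KO gel. KO media lay above all others and the 3 other groups overlapped. The interaction was -0.59 (SE 0.13, adjusted p = 0.0269, edgeR quasi-likelihood with Benjamini-Hochberg adjustment), and the KO excess of 0.67 in media was 0.08 in gel.

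Ikzf2, the zinc finger factor Helios, was the reverse: 133, 137 and 144 CPM in WT media, 94.7, 109 and 99.6 in KO media, 143, 155 and 164 in WT gel, and 167, 140 and 166 in KO gel, with 0.48. The KO deficit in media was -0.45 (adjusted p = 0.041, edgeR quasi-likelihood with Benjamini-Hochberg adjustment) and the difference in gel 0.03. Dnah17, a dynein heavy chain of cilia, gave 5.68, 4.96 and 5.67 CPM in KO media and 8.06 to 11.5 in the other 9 libraries, with 0.92. Nfkbia, the inhibitor that holds NF-kB in the cytoplasm, gave 53.1, 47.3 and 49.3 CPM in KO media and 54.7 to 71.8 elsewhere (0.63), and Cd93, a receptor of the C-type lectin family, 22.9, 23.2 and 21.8 in KO media and 12.2 to 19.8 elsewhere (-0.85). In each of these genes the KO media libraries did not overlap with any other.

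Beside Ccr2 and Cxcr4, another receptor of migration was called, Cxcr6, which binds CXCL16 (-0.45, KO media the farthest group). These were 3 of 18 chemokine and egress receptors tested, all negative (16.7%, against 1.45% of all genes, median -0.14), and edgeR called 0 of 18 without WT gel library 2 and KO media library 3. Among 30 integrins and adhesion genes 3 were called higher by edgeR (10%, against 1.89% of all genes) and 0 lower (1.45% of all genes). In the lower direction 5 had an unadjusted p under 0.05 by edgeR, DESeq2 called 1 and limma-voom called 1. Mcam (ENSMUSG00000032135, chr9:44134469-44142727), the adhesion molecule CD146, stood at 1.31, 1.58 and 1.49 CPM in WT media, 1.34, 1.15 and 1.33 in KO media, 1.8, 1.75 and 2.09 in WT gel, and 11.3, 13.1 and 12.8 in KO gel. WT gel lay above media and KO gel 9.69-fold above KO media, and the interaction was 2.90 (SE 0.19), the smallest adjusted p of the comparison (9.01e-06, edgeR quasi-likelihood with Benjamini-Hochberg adjustment). Itga2b, the platelet integrin chain, had 1.30, with KO gel at 7.15, 11.4 and 10.1 CPM beside the platelet marker levels given above, and Icam1, a ligand of LFA-1, 0.53.

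The lists drawn up for the actin system that DOCK8 acts on gave no calls by edgeR. Actin-binding genes outside these lists were called in both directions, among them Fscn1 (4.03) and Coro2a (-0.48), named after their values were seen. Of 50 genes of the actin filament machinery edgeR called 0, against 3.35% of all genes, with 0 higher and 8 lower at an unadjusted p under 0.05; DESeq2 called 4 lower and limma-voom 0, and the median of -0.12 became 0.01 with scaling by total counts. All 3 KO gel libraries lay below the other 9 for 22 of the 50 and above them for 1, against 11.3% and 10% of all genes. Of 30 genes for DOCK8 partners, Hippo kinases and CDC42 effectors edgeR called 0 (3 higher and 4 lower unadjusted, 1 higher by DESeq2, 0 by limma-voom), with a median of 0.05. Was, the effector of CDC42 that starts branched actin, had 128, 106 and 115 CPM in WT media and 91.1, 90.3 and 92 in KO gel, with -0.28 (adjusted p = 0.2, edgeR quasi-likelihood with Benjamini-Hochberg adjustment). Of 30 genes of T cell receptor signalling edgeR called 0 (0 higher and 2 lower unadjusted, 1 lower by DESeq2, 0 by limma-voom). In the nuclear lamina and LINC list, Emd, which encodes emerin (-0.43), and Lmnb2, a B-type lamin (-0.44), were 2 calls of 20 genes. Both were lower (10%, against 1.45% of all genes), and the list median was -0.20.

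**Figure D5:**
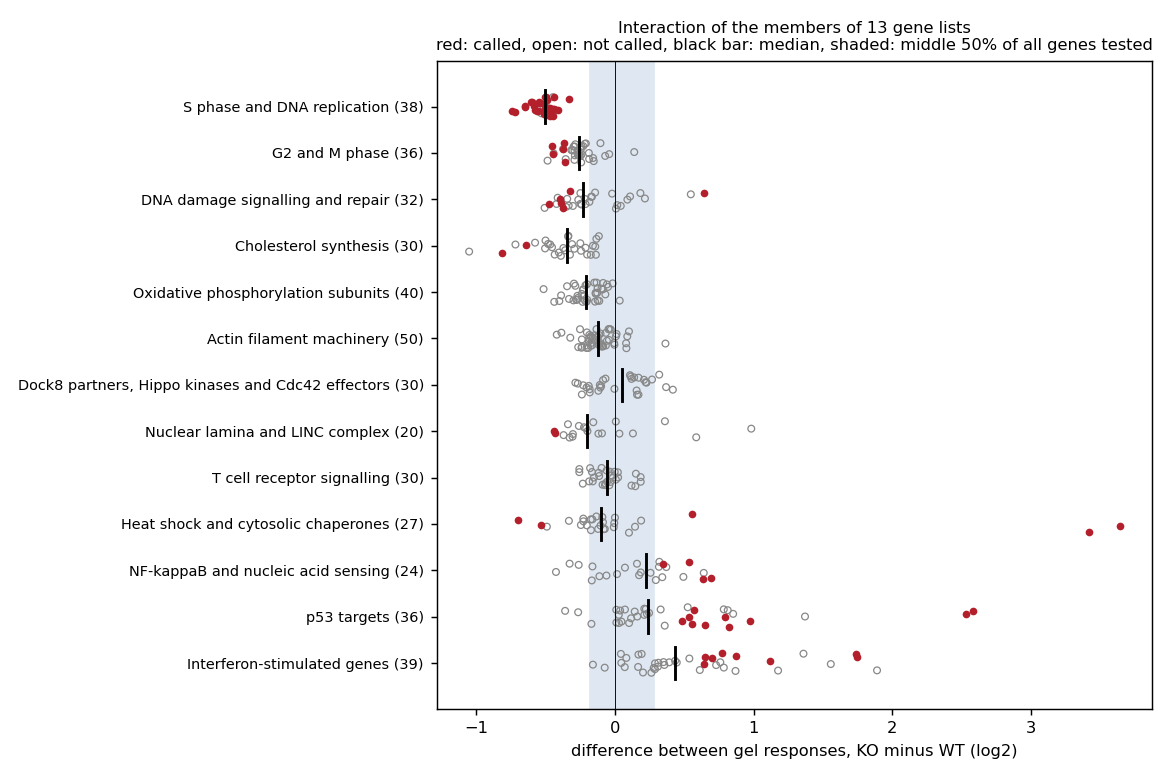
Interaction (log2, KO minus WT gel response) of each tested member of 13 gene lists, with called members filled in red, other members open, the list median as a black bar and the middle 50% of all genes tested shaded. The S phase members all lie left of 0 around a median of -0.50, and the interferon-stimulated genes lie right of it around 0.44.

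Metabolic lists held few calls. Fads1, the delta-5 desaturase of polyunsaturated fatty acids, stood at 53.4, 53.5 and 54.2 CPM in WT media, 54.1, 52.6 and 54.3 in KO media, 55.6, 55.3 and 57.6 in WT gel, and 35.6, 33.8 and 38.5 in KO gel. The first 3 groups lay between 52.6 and 57.6 CPM and KO gel below them, with -0.64 (SE 0.08, adjusted p = 0.00316, edgeR quasi-likelihood with Benjamini-Hochberg adjustment). With Scd2, a stearoyl-CoA desaturase (-0.82), it made 2 calls of 30 cholesterol and lipid synthesis genes (6.67%, against 3.35% of all genes). All 30 had a negative value (median -0.35). Of 40 nuclear-encoded subunits of oxidative phosphorylation edgeR called 0 (0 higher and 9 lower unadjusted, 1 lower by DESeq2, 0 by limma-voom; median -0.21). Slc2a1, the glucose transporter GLUT1 (-0.59), was the call among 32 genes of glycolysis and hypoxia, and Npm1, a nucleolar chaperone (-0.57), the call among 30 of ribosome biogenesis. These single calls are 3.12% and 3.33% of their lists, near the 3.35% of all genes.

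Effector genes of the CD8+ T cell changed in single cases. Nkg7, a membrane protein of cytotoxic granules, stood at 106, 117 and 124 CPM in WT media, 130, 122 and 130 in KO media, 132, 127 and 131 in WT gel, and 94, 96.2 and 100 in KO gel, with -0.57 (adjusted p = 0.0088, edgeR quasi-likelihood with Benjamini-Hochberg adjustment), 1 call of 25 cytotoxic genes. Cd160, an inhibitory receptor, had -0.56. Csf1, the macrophage growth factor, had 1.72 at 1.85 to 2.79 CPM in KO gel, the call among 21 cytokines, while Ifng, the type II interferon, reached 2.06, 2.37 and 2.72 CPM in KO gel against 0.756 to 1.69 elsewhere and was not called (1.01, adjusted p = 0.085 by the same test). Il15ra, the receptor chain that presents IL-15, had 0.64. The single calls among cytotoxic genes and among cytokines are 4% and 4.76% of their lists, near the 3.35% of all genes.

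A few nuclear RNAs were called higher as well. Neat1, the scaffold of paraspeckles, stood at 148, 194 and 217 CPM in WT media, 152, 156 and 137 in KO media, 159, 153 and 205 in WT gel, and 302, 324 and 276 in KO gel, with 1.13 (SE 0.19, adjusted p = 0.0088, edgeR quasi-likelihood with Benjamini-Hochberg adjustment). KO gel lay above the other 9, and WT media was the most spread group. Kcnq1ot1, an imprinted antisense transcript (1.35), and Pvt1 (0.61) were also called. That makes 3 of 12 nuclear-retained RNAs called higher, against 1.89% of all genes, with a median of 0.37. Without WT gel library 2 and KO media library 3, edgeR called 0 of them.

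Genes at low level made up most of the large values. Of the 260 positive calls with a mean log2 CPM under 3, 172 were protein coding, and 69 passed the filter on low counts only with the KO gel libraries. Among all positive calls 57 were of the annotation class for models still to be tested experimentally, against 5.12% of all genes tested. Several were large genes of other tissues, named here after their values were seen. Notch3, a Notch receptor of vessel walls, gave 0.0944 to 0.348 CPM in 9 libraries (4 to 15 counts each) and 2.45, 2.55 and 3.34 CPM in KO gel (93, 102 and 134 counts). At these counts it passed the filter only with the KO gel libraries, so it had to be high there. Fat1, a giant cadherin, Epha2, an ephrin receptor, Ttn, the sarcomere protein titin, and Lrp1, a scavenger receptor, had interactions of 3.52, 2.96, 3.14 and 2.95.

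Satellite-like gene models moved with the same libraries. Of 12 tested 10 were called higher, against 1.89% of all genes, with a median of 4.54. For Gm10801 the KO gel libraries gave 521, 96.3 and 205 CPM against 6.9 to 18.5 elsewhere. The KO gel group was thus high and also widely spread. edgeR called 0 of the 12 without WT gel library 2 and KO media library 3, limma-voom called 2 and DESeq2 12. The number of symbols counted and the satellite share were high in the same 3 libraries that carry the low-level calls, and their part in those calls was not tested.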

How the data were processed

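Total RNA was depleted of ribosomal RNA with RiboCop and made into libraries with the KAPA HyperPrep kit, per the labels' protocols. The deposited table holds raw counts per gene symbol and library, with no normalization; the submitters' processing notes name HISAT2, featureCounts, SAMtools, Picard, FastQC and MultiQC, with GRCm38 (mm10). For their versions, the annotation, the strand setting and the treatment of duplicate or multiply mapped reads the entry is "not given in the sources used here"; all of these can change counts of overlapping genes, antisense transcripts and near-identical copies. Positions and types came from GENCODE M21, which matched 96.4% of 55291 symbols.

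Libraries held 28483064 to 61390702 counts. Replicates differed by more than counting noise (chi-square per degree of freedom 11.8 to 155), so error came from the spread between libraries. Genes kept by filterByExpr (19010) were scaled by TMM and fitted as 4 group means with the robust quasi-likelihood F test of edgeR 4.0.16 in R 4.3.3, with p-values adjusted by Benjamini-Hochberg over all 19010 and calls at 0.05. A standard error is the absolute log2 value over the square root of F. CPM uses TMM-scaled totals. DESeq2 1.42.0, limma 3.58.1 (voom), other scalings and filters, replicate blocks and left-out libraries were alternatives. In simulated counts, 200 of 19009 genes were given an interaction. The test recovered 55.2% of 1.5-fold, 91% of 2-fold and 97% of 4-fold changes. Of its 166 calls in these counts, 4 were false. The 200 changed genes were all drawn from well expressed genes, those of 3 or higher in mean log2 CPM. Whether these shares hold for genes at low level, or for the calls in the real libraries, was not tested.

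The members, gene lists and motifs were chosen with earlier results of these data known. Named genes were Dock8, the 10 largest values in each direction and the 5 smallest p among the better expressed called genes (mean log2 CPM 3 or more; histones, ribosomal protein genes, receptor segments, pseudogenes and predicted models left out), the 5 smallest p per other farthest group, up to 4 per list and the 3 smallest p at low level; others are said to be named after their values were seen. Promoters were RefSeq windows on GRCm38.p6. Some genes are not reported here.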

Additional observations from a re-analysis of the deposited data

Results flagged for a closer look

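A test of the difference between the genotypes picked out 636 genes whose gel response was not the same in KO and WT cells. With the 5 smallest p in each direction among well expressed genes, these include Plk2 (2.53), Ercc5 (0.65), Rgs1 (0.93), Jun (1.55) and Ifit1bl1 (0.88) on the positive side. On the negative side they include Fads1 (-0.64), Rad54l (-0.65), Cdc6 (-0.65), Cdt1 (-0.74) and Rrm1 (-0.58), all as log2 differences between the responses.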

How the results depend on the processing

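Counts of calls moved with the processing (636 genes, 360 positive and 276 negative). With every gene of at least 1 count 1768 were called (983 and 785), with genes of mean log2 CPM of at least 3 alone 244 (121 and 123), with DESeq2 1149 (582 and 567), and with total-count scaling 24 negative. Without WT gel library 2 and KO media library 3, 30 were called (28 and 2). Leaving out 1 library gave 185 to 2011 (118 to 1054 positive, 67 to 957 negative); each library other than KO media 2 (490) and WT gel 3 (812) moved the count by over 1.5 times. The S phase count of 31 became 4 with total-count scaling, 20 among well expressed genes, 0 without both libraries and 15 to 36 without 1 library. The p53 count of 10 became 2 and 5 to 11 in the last pair of settings. The interferon count of 8 became 14 with total-count scaling, 15 with every counted gene, 15 with DESeq2, 1 without both libraries and 1 to 16 without 1 library. Among the named genes, values that changed sign were those of CT010467.1, 0.155 without both libraries, and of Cd22, -0.98 to 0.064 without 1 library; neither gene was called. Of 46 list medians, 23 changed sign in at least 1 setting. The causes of these changes were not tested.

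The labels name no shared mouse, and the criterion for pairing by number (every correlation over 0.1) was not met: same-numbered media and gel libraries of a genotype correlated by 0.0562 to 0.506 (mean 0.215), different-numbered ones by -0.46 to 0.072 (mean -0.108), and not every library correlated best with its own number. A replicate block by assumed mouse gave 3431 calls (1552 and 1879, 17 p53 targets and 20 interferon-stimulated genes), and a block by number across all groups 962 (483 negative).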

Other observations

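Genes of the matrix itself and of guidance held single calls. Plxna1, a semaphorin receptor, reached 16.7, 21.4 and 20.6 CPM in KO gel against 4.97 to 9.87 elsewhere (1.10), 1 call of 17 plexins, semaphorins and neuropilins. That is 5.88% of the list, against 3.35% of all genes. Among 26 pericellular proteases and their inhibitors, Adamts6, a secreted metalloprotease, rose in KO cells (interaction 0.71), at 35, 28.5 and 32.4 CPM in KO gel against 18.9 to 27.6 elsewhere, while Adam19, a membrane-bound protease, had 172, 174 and 175 CPM in KO gel against 196 to 222 elsewhere (-0.41).

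Single genes outside the described groups were called too, and for the 2 lists with a call the share was near the 3.35% of all genes. Ddit3, the stress factor CHOP, stood at 11.4 to 11.8 CPM there and at 6.26 to 9.01 in the other 9 libraries (0.76), the call among 26 genes of ATF4 and amino acid stress. Arsb, a lysosomal sulfatase, was at 40.9, 51.4 and 50.8 CPM in KO gel against 52.9 to 99.7 elsewhere (-0.81), the call among 32 lysosomal genes. Aqp9, a channel for water and glycerol, was at 3.27, 3.44 and 4.49 CPM against 5.79 to 8.48 elsewhere (-0.98). Of 27 antioxidant genes and of 23 genes of TGF-beta signalling edgeR called 0; at an unadjusted p under 0.05 it passed 2 higher and 2 lower, and 4 higher and 2 lower. DESeq2 called 0 of the former and 1 lower of the latter, and limma-voom 0 of the former and 1 higher of the latter.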
